A study of Mus musculus with 3 samples.

Results

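Among the 18945 CTCF peaks listed for mouse LSK cells, 389 (2.05%) were at least 1000 bp wide, and these wide peaks are described here against the other 18556. The wide peaks were chosen by their width, the end minus the start of each peak in the deposited list, so width is not a finding, and fold enrichment and −log10 p-value, which come from the same peak calls, are given as descriptions. LSK cells (Lin-, Sca1+, cKit+) are a bone marrow fraction rich in blood stem cells and multipotent progenitors. They were isolated from adult C57BL6 mice by Sca1+ and cKit+ and by the absence of lineage markers (Ter119-, CD45R-, Ly6g-, CD11b-, IL7Ra-, CD8- and CD4-), and chromatin was precipitated with an antibody to CTCF (Millipore, 07-729). The study's methods give the mice of all its primary cell populations as male. There was 1 library, without a replicate, and the number of animals behind it is not given in the labels. A peak list holds no marker expression, so the identity of the sorted cells could not be checked here. The list holds no read counts either, so the depth behind each peak is unknown. The input libraries of the LSK and MEP cells were not analysed here.

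CTCF is a zinc finger protein that binds DNA through a long motif with a conserved core. Together with cohesin it anchors chromatin loops, and the direction of its motif matters, since loops form preferentially between sites that point toward each other. A bound site usually gives a single narrow ChIP-seq peak centred on the motif.

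The core motif of CTCF was searched on both strands without mismatch (a core motif), and a position weight matrix of 20 columns was used to find weaker sites (matrix sites). The matrix was built from the core motifs in the central 200 bp of the narrower peaks, with 4 bases on each side. Matrix sites were counted without overlap. A peak was called multicopy when over 50% of its 31-base words occurred more than once in chromosomes 1 to 19, X and Y of the reference genome, and single-copy otherwise. Copies within the peak itself were counted. By this rule 341 wide peaks were single-copy and 48 were multicopy.

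The sequences below show the kinds of site found in the wide peaks. All were read from GRCm38.p6, which shares its chromosome coordinates with mm10, and all are written 5′ to 3′ on the strand named, with core motifs in capitals. The first pair are the peaks with the most core motifs. In an intron of Eif3b, a subunit of a translation initiation factor, the peak at chr5:140438589-140439824 held 15 core motifs, all on the minus strand and 66 bp apart, of which 5 are shown. In an intron of Sec22c, a gene of vesicle transport, the peak at chr9:121697292-121698340 held 7 core motifs, all on the plus strand and 45 bp apart, of which all 7 are shown.
Eif3b intron, chr5:140438702-140438977, minus strand: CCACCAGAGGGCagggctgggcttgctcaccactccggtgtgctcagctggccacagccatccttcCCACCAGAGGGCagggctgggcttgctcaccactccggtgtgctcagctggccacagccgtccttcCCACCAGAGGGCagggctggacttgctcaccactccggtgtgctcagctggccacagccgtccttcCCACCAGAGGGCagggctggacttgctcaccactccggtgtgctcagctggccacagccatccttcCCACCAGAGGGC
Sec22c intron, chr9:121697658-121697939, plus strand: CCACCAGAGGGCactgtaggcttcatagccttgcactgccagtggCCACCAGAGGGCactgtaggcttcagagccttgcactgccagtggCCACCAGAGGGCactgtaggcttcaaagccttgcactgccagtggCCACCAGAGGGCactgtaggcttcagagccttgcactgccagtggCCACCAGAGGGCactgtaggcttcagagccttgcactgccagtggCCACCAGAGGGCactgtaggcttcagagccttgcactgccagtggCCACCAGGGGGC

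Arrays without a core motif are shown by 1 unit each, with the matrix site in capitals. These 3 units were chosen after their values were seen. They come from the widest peak of all, at chr12:59035085-59039172, from an intron of Nuf2, a kinetochore gene, and from an intron of Snx29, a sorting nexin gene.
Chromosome 12 array, chr12:59035120-59035214, plus strand: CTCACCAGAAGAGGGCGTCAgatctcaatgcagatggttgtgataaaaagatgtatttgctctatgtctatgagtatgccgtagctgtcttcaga
Nuf2 intron, chr1:169517652-169517689, plus strand: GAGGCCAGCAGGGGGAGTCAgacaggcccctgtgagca
Snx29 intron, chr16:11423491-11423547, plus strand: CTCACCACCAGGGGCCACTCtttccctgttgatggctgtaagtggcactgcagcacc

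The widest peaks with a core motif held separate sites rather than arrays. Each site is shown with 9 bases on either side. The first lies on the 3′ side of the immunoglobulin heavy chain locus, 31545 bp past the constant region gene Igha, and the next 3 lie upstream of Rpia on the 3′ side of the immunoglobulin kappa locus, 77342 bp past the constant region gene Igkc. The last 3 lie upstream of P4ha1, which encodes a subunit of collagen prolyl hydroxylase.
Igh 3′ side, chr12:113221399-113221428, plus strand: tgcatctgtCCACCAGGGGGCacctgagca
Igk 3′ side, site a, chr6:70804762-70804791, plus strand: aacattataCCACTAGGTGGCagcagcaac
Igk 3′ side, site b, chr6:70805486-70805515, plus strand: cttcttgtaCCACTAGGTGGCagcaacatc
Igk 3′ side, site c, chr6:70806114-70806143, minus strand: ggccttcagCCACTAGGTGGCagcaacatt
P4ha1 upstream, site a, chr10:59295395-59295424, minus strand: gtcccagcaCCACCAGATGGCagtgtggac
P4ha1 upstream, site b, chr10:59295707-59295736, plus strand: attcccatgCCACCAGGGGGCagtgcagag
P4ha1 upstream, site c, chr10:59296482-59296511, plus strand: gtatccaggCCACCAGGTGGCagtgttgtc

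Pairs of core motifs are shown for each orientation by the wide peak with the highest fold enrichment among those with exactly 2 core motifs. The divergent pair (pointing away from each other, 711 bp apart) lies in an intergenic peak on chromosome 5. The tandem pair (143 bp apart) lies near Pdlim7, a PDZ and LIM domain gene, and the convergent pair (280 bp apart) lies at B3glct, a glycosyltransferase gene, where the first site overlaps an annotated untranslated region. The B3glct peak tied at a fold enrichment of 19.3 with a peak in Vwa1 on chromosome 4 that held a convergent pair 473 bp apart. A further convergent pair, 660 bp apart, comes from a peak near the chemokine gene Ccl21b and was chosen after its values were seen, since it recurs in a duplicated region described later.
Divergent, site a, chr5:106802573-106802602, minus strand: ctgatcctaCCGGCAGGTGGCgccgcgttg
Divergent, site b, chr5:106803284-106803313, plus strand: gctcttcggCCAGCAGGTGGCagcgcgcca
Tandem, site a, chr13:55517006-55517035, minus strand: tcctgtcggCCGGCAGATGGCcaggagccg
Tandem, site b, chr13:55517149-55517178, minus strand: ggatcctggCCACCAGAGGGCgctgtatcc
Convergent, site a, chr5:149678202-149678231, plus strand: cgatcccggCCGCCAGAGGGCgcagcccga
Convergent, site b, chr5:149678482-149678511, minus strand: agggtggcgCCACTAGAGGGCgctgcggcc
Ccl21b, site a, chr4:42262464-42262493, plus strand: ctggctccgCCACTAGGGGGCagcagcatc
Ccl21b, site b, chr4:42263124-42263153, minus strand: actctccggCCTGCAGGGGGCgcgccgagc

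The wide peaks covered 500059 bp, or 3.71% of all bases in peaks. Their widths ran from 1000 to 4088 bp with a median of 1203 bp, while the narrower peaks ran from 308 to 999 bp with a median of 712 bp. The fold enrichment of the wide peaks ran from 2.58 to 33.6 with a median of 12.7, against 2.94 to 42.4 with a median of 10.1 in the narrower peaks. The highest fold enrichment of the list belonged to a narrower peak, and 233 wide peaks (59.9%) were in the upper tertile of all peaks (at least 12.1). The median −log10 p-value was 30.1 in wide and 12.4 in narrower peaks. The 18 peaks at the limit or up to 10 bp above it had fold enrichments of 10.1 to 20.9 (median 14.2) and the 11 peaks up to 10 bp below it had 6.85 to 17.1 (median 13.1), and 5 and 2 of them, respectively, held 2 or more matrix sites.

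Single-copy and multicopy wide peaks differed in their peak values. The 341 single-copy peaks had a median width of 1194 bp and a median fold enrichment of 13.4, with a range from 3.54 to 33.6. The 48 multicopy peaks had a median width of 1380 bp and a median fold enrichment of 4.87, with a range from 2.58 to 18.6. Of the 10 widest peaks 8 were multicopy, with fold enrichments from 2.58 to 8.65, and the other 2 were the single-copy peaks beside the Igh and Igk loci.

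**Figure D1:**
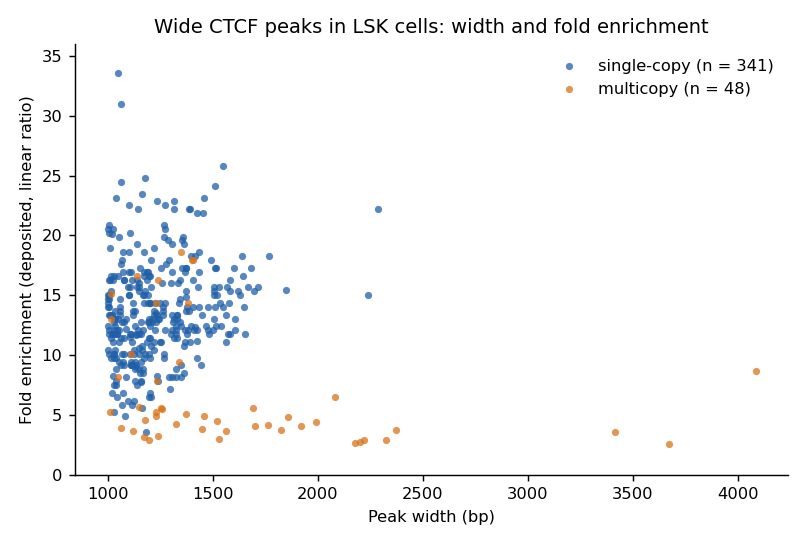
Each point is 1 wide peak, with its width in bp on the x axis and its deposited fold enrichment (a linear ratio) on the y axis. Single-copy peaks (n = 341) reach 2289 bp, and most multicopy peaks (n = 48) lie below a fold enrichment of 10, including the widest at 4088 bp.

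The first comparison asked whether the wide peaks hold a CTCF site at their centre, as a peak around 1 bound site would. They mostly did not: 14 of 389 wide peaks (3.60%, 95% Wilson interval 2.16 to 5.95) had a core motif in the central 200 bp, against 33.2% of the narrower peaks (6168 of 18556). The difference was −29.6 percentage points (95% Newcombe interval −31.2 to −27.2). By the matrix the shares were 7.97% and 66.8%, the second including sites from which the matrix was built. These intervals, and those that follow, cover counting error only, since there was 1 library. Over the whole peak the order was reversed, with at least 1 core motif in 193 wide peaks (49.6%) and in 35.3% of the narrower peaks, a difference of 14.3 points (9.30 to 19.3). In windows of the same width 10 kb away from the wide peaks the share was 1.93%. Per kilobase the densities were alike, with 0.508 core motifs in wide and 0.515 in narrower peaks.

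More than 1 site was found in a larger share of wide than of narrower peaks, although not in most wide peaks. Of the 389, 41 (10.5%, interval 7.86 to 14) held 2 or more core motifs, against 0.647% of the narrower peaks, a difference of 9.89 points (7.22 to 13.3). With the matrix, 167 wide peaks (42.9%) and 2.67% of narrower peaks held 2 or more sites, a difference of 40.3 points (35.4 to 45.2). Windows of equal length gave a similar contrast. In 1 kb on the midpoint of every peak, 40.4% of wide and 3.37% of narrower peaks held 2 or more matrix sites. In windows of equal width 10 kb away from the wide peaks the share was 0.643%.

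Among the 341 single-copy wide peaks, 42 (12.3%) held no matrix site, 139 (40.8%) held 1, 143 (41.9%) held 2, 12 (3.52%) held 3, and 5 (1.47%) held 4 or more. The sites stood away from the midpoint. Of 491 matrix sites in these peaks 381 (77.6%) were 150 to 450 bp from the midpoint and 38 (7.74%) were within 100 bp, with a median distance of 261 bp. In the single-copy narrower peaks 12580 of 13440 sites (93.6%) were within 100 bp, with a median of 28.5 bp. These include sites from which the matrix was built.

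**Figure D2:**
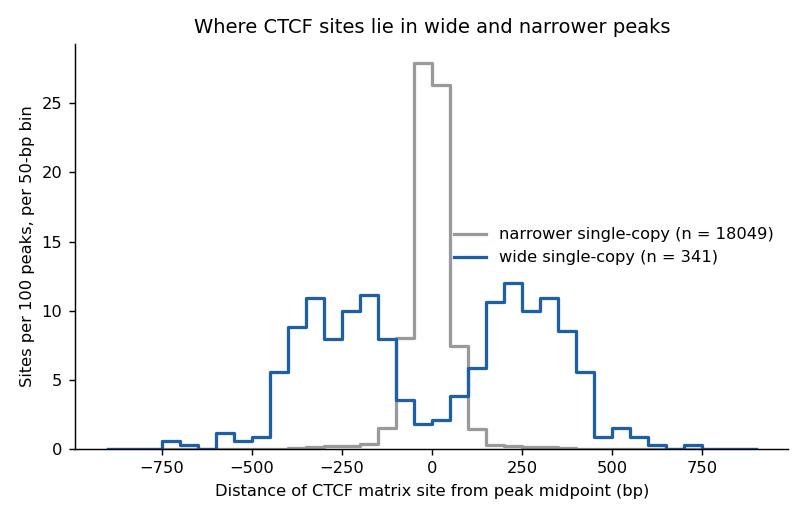
Matrix sites per 100 peaks in bins of 50 bp (y axis) by distance from the peak midpoint in bp (x axis), for wide single-copy (n = 341) and narrower single-copy (n = 18049) peaks. The narrower peaks have a single maximum at the midpoint, and the wide peaks have a maximum on either side with few sites between them.

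In the 143 single-copy wide peaks with exactly 2 matrix sites, the sites were 40 to 1073 bp apart with a median of 565 bp, and in 136 peaks (95.1%) they stood on opposite sides of the midpoint. In the 464 single-copy narrower peaks with 2 sites the median distance was 120 bp and 291 peaks (62.7%) had them on opposite sides, a difference of 32.4 points (25.9 to 37.5). Each site of a wide pair lay a median of 372 bp from its own edge of the peak, and each site of a narrower pair 332 bp. In single-copy peaks with 1 site, the nearer edge was a median of 379 bp from the site in wide and 329 bp in narrower peaks. As a description, Pearson's r between width and distance was 0.706 across the 143 peaks (Spearman's rank correlation 0.723) and 0.109 across the 464 narrower peaks (0.0726). Width minus distance had a median of 734 bp in the 143 peaks and 614 bp in the 464. Width chose the peaks of both sets and the distance cannot exceed it, so nothing is drawn from these values.

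Of the 143 pairs 75 (52.4%, interval 44.3 to 60.5) were in tandem, 34 (23.8%) convergent and 34 (23.8%) divergent. The single-copy narrower peaks had 60.8% tandem, 17.7% convergent and 21.6% divergent pairs. The differences were −8.33 points for tandem (−17.6 to 0.869), 6.10 for convergent (−1.16 to 14.4) and 2.22 for divergent (−5.16 to 10.6), so a difference in orientation was not detectable with this number of pairs.

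**Figure D3:**
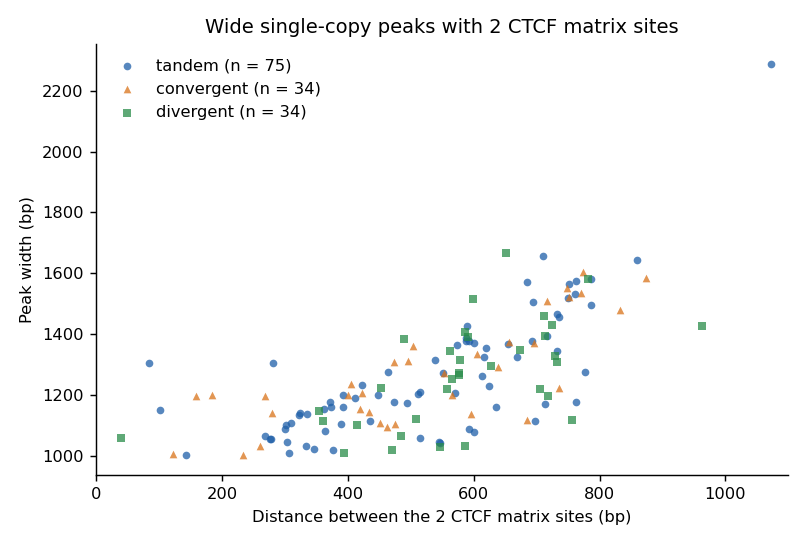
Each point is 1 of the 143 wide single-copy peaks with 2 matrix sites, with the distance between the sites (bp, x axis) against the peak width (bp, y axis), by orientation of the pair. Width chose these peaks, so the plot is a description. The distances run from 40 to 1073 bp, and the widest peak of this set has its sites 1073 bp apart.

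The share of peaks with several sites rose with width up to 1499 bp, with its largest step between the classes of 800 to 899 and 900 to 999 bp. In peaks under 600 bp 1.49% held 2 or more matrix sites, in those of 800 to 899 bp 4.84%, in those of 900 to 999 bp 19.7%, and in those of 1000 to 1099 bp 32.0%. It was 53.0% at 1300 to 1499 bp and 40.0% at 1500 bp and over. The share with a matrix site in the central 200 bp rose from 52.9% under 600 bp to 74.6% at 800 to 899 bp, and then fell through 61.6% at 900 to 999 bp to 19.6% at 1000 to 1099 bp. Multicopy sequence made up 31.7% of the 60 peaks of 1500 bp and over, and 10.8% of those of 1300 to 1499 bp.

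**Figure D4:**
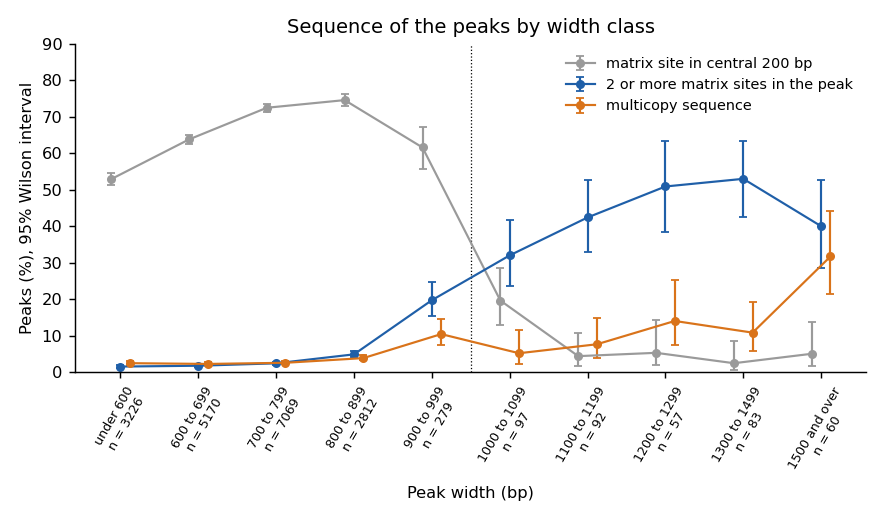
Share of peaks (%, y axis, points with 95% Wilson intervals) in each class of peak width (x axis), with the dotted line at 1000 bp. Central matrix sites drop from 61.6% to 19.6% across the line while peaks with 2 or more sites rise from 19.7% to 32.0%, and multicopy peaks reach 31.7% in the widest class.

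The 42 single-copy wide peaks without a matrix site were more often at promoters. Of these, 16 (38.1%) had their midpoint within 1 kb of a transcription start site (TSS) and 12 (28.6%) had a CpG-rich centre, against 16.7% and 10.4% of the 299 with a site. The differences were 21.4 points (7.48 to 36.9) and 18.2 points (6.13 to 33.5). A core motif with at most 1 mismatch was present in 26 of the 42 (61.9%) and in all of the 299. How often such a match occurs in windows away from the peaks was not counted, so nothing is drawn from this share. The fold enrichments of the 42 peaks, 6.85 to 23.5 with a median of 13.2, spanned much of the range of the other single-copy wide peaks. The peak with the highest fold enrichment among them (23.5) lay on chromosome 13 upstream of Tut7, an RNA uridylyl transferase gene.

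Of the 8 wide peaks with 4 or more matrix sites 5 were tandem arrays, in which near-identical units each carried a site. The Sec22c peak had the highest fold enrichment of all wide peaks, 33.6, and its 6 full units had a median pairwise identity of 97.8%. The Snx29 peak (chr16:11423163-11424479) held 11 matrix sites on 1 strand, 57 bp apart, with a fold enrichment of 22.8 and the highest −log10 p-value of the wide peaks, 186. The 15 core motifs of the Eif3b peak came with a fold enrichment of 7.83, and its units were 98.5% identical (median). The Nuf2 peak (chr1:169517428-169518540) held 16 sites, 8 of the 15 intervals being 38 bp, with a fold enrichment of 10.1. Thus the number of sites in an array and its fold enrichment did not go in the same order over these peaks. The list gives 1 value per peak, not per copy.

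The widest peak, on chromosome 12 downstream of Gemin2, was an array throughout. It held 40 matrix sites and no core motif, 38 of its 39 intervals were 95 bp, and the 38 units compared were identical. All of its 4088 bp are soft-masked as repeats and 97.5% of its words recur within the peak itself. Its fold enrichment was 8.65 and its −log10 p-value 118.

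The wide peaks beside the immunoglobulin loci were single-copy. The peak on the 3′ side of Igh (chr12:113220996-113223284) was 2289 bp wide with a fold enrichment of 22.2 and 2 matrix sites. It was 1 of 3 wide peaks there: 1 of 1212 bp (fold enrichment 12.7) lay 12 bp away, and 1 of 1361 bp (fold enrichment 19.9) lay beyond it, each with 1 matrix site. The peak on the 3′ side of Igk (chr6:70804309-70806546) was 2238 bp wide with a fold enrichment of 15.01 and 3 core motifs, 2 on the plus and 1 on the minus strand. P4ha1, with 3 core motifs in a peak of 1852 bp 27355 bp upstream of its TSS, had a fold enrichment of 15.5. A further 37 wide peaks tied at 2 core motifs each.

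Further wide peaks of high fold enrichment are described by their place in or near genes. After Sec22c came a peak of 31 that lay 1712 bp upstream of Fam92b, a gene of ciliary function, inside the long transcript Gm20388, and held 2 matrix sites. A peak of 25.8 lay in an intron of Moxd1, a monooxygenase gene, and had 1 matrix site. One of 24.8 lay past the 3′ end of Ppp1r8, a regulator of protein phosphatase 1, and one of 24.5 lay 11519 bp upstream of the dopamine receptor gene Drd5, each with 1 matrix site. Peaks of 23.2 lay in an intron of Pmepa1, nearest to Zbp1, without a matrix site, and between genes on chromosome 5, nearest to Gm8365, with the divergent pair printed above. An intron of Kcnab2, a potassium channel subunit gene, held a peak of 22.8 with 2 matrix sites, tied with Snx29.

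The second kind of wide peak lay in sequence that occurs several times in the genome, counting copies within the peak itself. The chromosome 12, Eif3b and Nuf2 arrays are of this kind, with 97.5%, 73.0% and 50.7% of their words recurring within the peak. Multicopy peaks were 48 of 389 wide peaks (12.3%, interval 9.43 to 16) and 2.73% of the narrower peaks, a difference of 9.61 points (6.69 to 13.3). It was 4.15 points (1.98 to 7.28) in the 9472 peaks ranked first by false discovery rate, and 1.55 points (−0.311 to 4.88) in the upper tertile of fold enrichment, where it no longer exceeded the counting error. The study's methods allow reads with several matches, but the submitters' notes name another version of the mapper, so whether this held for the library is not known. The part that such reads had in the width of the multicopy peaks was not tested. Of the 48 multicopy wide peaks, 33 (68.8%) held no matrix site, against 12.3% of the single-copy wide peaks. At least 1 matrix site was found in 31.2% of them and in 59.4% of the 507 narrower multicopy peaks. In 32 (66.7%) the midpoint was intergenic and in 22 (45.8%) over 50% of the bases were repeats. In the narrower multicopy peaks these 2 shares were 60.6% and 23.7%. The differences were 6.11 points (−8.61 to 18.5), within the counting error, for intergenic position and 22.2 points (8.35 to 36.5) for repeats. Linked by sharing at least 20% of their words, 34 of the 48 fell into 9 families and 14 stood alone. Members of a family are not independent, so the intervals given for multicopy peaks are too narrow. The largest family alone supplied 12 of the 33 peaks without a matrix site and 12 of the 22 with over 50% repeats.

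The largest family was on chromosome X, the chromosome with the highest share of wide peaks (14 of 248, 5.65%). All 14 were multicopy. Wide single-copy peaks were 0 of 248 on X, which allows a share of up to 1.21%, and 1.82% (341 of 18697) on the autosomes, a difference of −1.82 points (−2.03 to −0.288). Among the single autosomes the share ran from 0.87% on chromosome 16 to 2.81% on chromosome 19. The mice were male, and the part that a single X chromosome had in the difference from the autosomes was not tested. In chrX:94877750-94974165, between the pseudogenes Zxda and Gm371, 12 of 16 peaks were wide. Their words occurred a median of 23 times in the genome, 89.1 to 96.1% of their bases were repeats, none had a matrix site, and their fold enrichments were 3.75 to 6.53. The widest were 2373, 2085, 1859, 1764 and 1702 bp. The 31-base word shared by all 12 stands for this family.
X family, chrX:94878431-94878461, plus strand: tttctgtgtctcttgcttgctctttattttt

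On chromosome 4 the wide peaks of 2 duplicated regions contrasted. In chr4:41803623-42619918, a region of copied chemokine genes that includes Ccl27a and Ccl21b, 6 of 7 peaks were wide and multicopy, and every one held a matrix site. Of the 6, 4 held the same convergent pair 660 bp apart, with identical bases around both sites, as printed above for Ccl21b. Their fold enrichments were 14.4, 17.95, 17.95 and 18.6, and the 2 copies with 1 motif had 9.46 and 5.22. In the other region, chr4:145692181-147289022, all 7 peaks were wide and none held a matrix site. This region holds zinc finger genes and pseudogenes such as Zfp980, Zfp600, Rex2 and Znf41-ps, and the fold enrichments there were 2.90 to 4.42. The −log10 p-values there were 5.25 to 13.45. The Znf41-ps peak (3418 bp, fold enrichment 3.58) and the one beside the pseudogene Vmn2r-ps15 (2324 bp, 2.90) were among the 10 widest. The second widest peak, on chromosome 8 (3672 bp), had the lowest fold enrichment of the list, 2.58, and lay between Gm35572 and Zfp709. Its −log10 p-value was 5.16.

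Of the 10 widest peaks 3 came from the Sprr2a genes of chromosome 3, which encode small proline-rich proteins of the cornified layer of the skin. The peaks at Sprr2a1, in Sprr2a2 and at Sprr2a3 were 2180, 2204 and 2219 bp wide, with fold enrichments of 2.65, 2.72 and 2.89 and no matrix site. Pairs of them shared 57.2 to 92.8% of their words. The −log10 p-values of these 3 peaks were low, at 5.74, 5.01 and 5.43 in the same order. The value of the peak in Sprr2a2 was the lowest of all wide peaks. On chromosome 14 the wide peaks 110 bp from the TSS of Trav9d-4 and 93 bp from that of Trav9n-4, variable segments of the T cell receptor alpha locus, shared 100% of their words, and each held 1 core motif. Their fold enrichments were 13.03 and 16.3.

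The third comparison was of position. The midpoint of 71 wide peaks (18.3%, interval 14.7 to 22.4) was within 1 kb of a TSS, against 11.7% of narrower peaks, a difference of 6.54 points (2.98 to 10.7). A CpG-rich centre (500 bp with at least 50% GC and an observed to expected CpG ratio of at least 0.6) was found in 44 wide peaks (11.3%) and in 6.71% of narrower peaks, a difference of 4.60 points (1.8 to 8.15). Of the 44, 25 (56.8%) were within 1 kb of a TSS, against 64.5% of the 1245 narrower peaks with a CpG-rich centre. The CpG difference was 0.725 points (−0.803 to 3.14) at 55% GC and a ratio of 0.75, 0.704 (−2.22 to 5.22) at a width limit of 1200 bp and 3.39 (−0.25 to 8.24) in the upper tertile of fold enrichment, so its interval reached below 0 under each of these. The TSS difference was 4.19 points (−0.263 to 9.93) at a width limit of 1200 bp, so its interval also reached below 0 there. At 1500 bp and over the TSS difference was 1.49 points (−4.95 to 12.3) and the CpG difference was −6.83 points (−7.19 to −0.798).

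The midpoint was in an intron in 36.5% of wide and 44.1% of narrower peaks, a difference of −7.56 points (−12.2 to −2.61). Among single-copy peaks it was −7.16 points (−12.2 to −1.86). Another peak lay within 2 kb of 15.7% of wide and 11.3% of narrower peaks (4.43 points, 1.12 to 8.4). Among single-copy peaks that difference was 3.09 points (−0.271 to 7.23). The following differences had intervals that came close to 0. The midpoint was intergenic in 51.2% of wide and 45.7% of narrower peaks (difference 5.46 points, 0.457 to 10.4), over 50% of the bases were repeats in 8.74% and 6.14% (2.60 points, 0.158 to 5.84), and another peak lay within 10 kb of 40.9% and 35.8% (5.09 points, 0.262 to 10.1). Among single-copy peaks these differences were 3.70 (−1.62 to 9.03), −2.13 (−3.66 to 0.425) and 4.35 points (−0.769 to 9.68), so none exceeded the counting error. At a limit of 1500 bp, where 31.7% of the wide peaks were multicopy, the differences were larger for intergenic position (14.2 points, 1.58 to 25.7) and for repeats (13.9 points, 5.67 to 25.6).

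**Figure D5:**
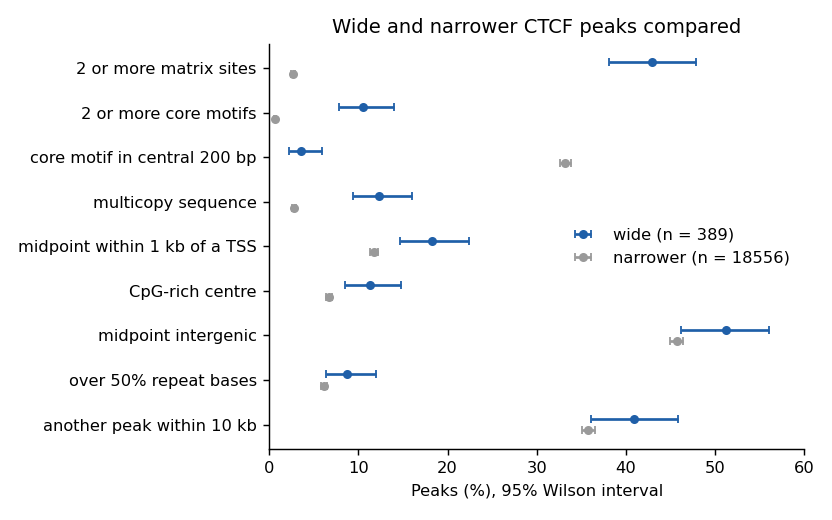
Share of wide (n = 389) and narrower (n = 18556) peaks with each feature (%, x axis, points with 95% Wilson intervals). The intervals stand apart for 2 or more sites, the central core motif, multicopy sequence, TSS and CpG-rich centre, and lie close together for intergenic position, repeats and neighbouring peaks.

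Finally, genes near wide peaks were counted. Of 21728 protein-coding genes 182 (0.838%) had a wide peak within 10 kb of the TSS, and 62 had one within 1 kb. The lists that bear on blood cells held few. None of the 25 stem and progenitor genes, 22 erythroid, 17 megakaryocyte and 27 lymphoid genes had one, although 12, 9, 5 and 8 of them had some CTCF peak within 10 kb (48%, 40.9%, 29.4% and 29.6%, against 29.3% of all protein-coding genes). Of 23 granulocyte and monocyte genes 1 did: Cebpb, a transcription factor of myeloid cells, with a peak of 1430 bp, a fold enrichment of 15.7 and 2 matrix sites 7729 bp from its TSS. Of 22 cell cycle genes 1 did: Ccnd2, which encodes cyclin D2, with a peak of 1199 bp, a fold enrichment of 12.7 and 2 matrix sites at 9185 bp. These counts are too small to set a list apart from the background.

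The other lists gave 0 of 22 annotated chromatin architecture genes, 0 of 26 imprinted genes, 0 of 83 ribosomal protein genes, 0 of 39 Hox genes and 0 of 1134 olfactory receptor genes. Some CTCF peak lay within 10 kb of 31.8%, 19.2%, 67.5%, 69.2% and 4.32% of these genes, respectively, against 29.3% of all protein-coding genes. Of 3 annotated genes listed for CTCF repeat arrays 1 had a wide peak, Sec22c. The lists were chosen with earlier results of these data known, so nothing is drawn from this count. Among 67 replication-dependent histone genes Hist2h2bb and Hist2h3b shared 1 wide peak of 1113 bp (fold enrichment 11.8). Among 394 zinc finger genes named Zfp, Zfp319 had a wide peak of 1161 bp over its TSS with a fold enrichment of 9.46 and no matrix site, and Zfp692 had one of 1305 bp and 17.0 with 2 matrix sites at 4832 bp. The chromosome 4 zinc finger peaks lay in introns, or in or beside pseudogenes, over 10 kb from the TSS of any gene in that list.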

How the data were processed

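CTCF ChIP-seq of 1 LSK library was analysed. The study's methods name Bowtie, Samtools and MACS, mapping to mm10 with multiply mapping reads allowed, and removal of reads on ChrM and unplaced chromosomes. The submitters' processing notes name bcl2fastq and Bowtie 1.0.0. How MACS was set and with which input was not given in the sources used here. Fold enrichment as deposited is a linear ratio. The deposited −log10 values are those of the peak p-values, and the deposited false discovery rate (a q-value) was used for ranking only.

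Sequence was read from GRCm38.p6 and genes from GENCODE M21, and positions are 1-based. Matrix sites were those above the score passed by 1% of 200-bp windows 10 kb away. Analysis used Python 3.11.15, numpy 2.4.6, scipy 1.17.1 and pandas 2.3.3, with Wilson intervals for shares and Newcombe intervals for differences. No test across samples was possible with 1 library. The motif search, word counts and intervals were tested on simulated data. The members and lists were chosen with earlier results of these data known. Named genes were those nearest to or hosting the 10 widest, the 10 highest in fold enrichment, the 5 with most core motifs and the 5 widest on chromosome X, and up to 5 per list. Of these, 1 is not reported here. Sequences were chosen by number of motifs, width, or fold enrichment and orientation, unless said otherwise.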

Additional observations from a re-analysis of the deposited data

How the results depend on the processing

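Differences are given in percentage points, wide minus narrower. For a core motif in the central 200 bp, −29.6 became −34.6 in the 9472 peaks of lowest false discovery rate, −35.8 in the upper tertile of fold enrichment, −66 with 1 mismatch, −58.9 with the matrix and 14.3 over the whole peak. For 2 or more core motifs, 9.89 became 46.5 with 1 mismatch, 40.3 with the matrix and 37 with the matrix in 1 kb. At a limit of 1200 bp the differences were 6.88 for repeats, 0.704 for CpG-rich centres and 15.2 for multicopy sequence. At 1500 bp they were 1.49 for TSS, 14.2 for intergenic, 13.9 for repeats, −6.83 for CpG-rich centres and 28.8 for multicopy sequence. The difference in repeats was −0.38 in the upper tertile of fold enrichment and −2.13 without multicopy peaks. That for CpG-rich centres was 0.725 with 55% GC and a ratio of 0.75. That for multicopy sequence was 4.15 in the peaks of lowest false discovery rate, 5.1 without repeat peaks and 1.55 (−0.311 to 4.88) in the upper tertile of fold enrichment. The 182 genes near wide peaks became 62 within 1 kb, 861 within 50 kb and 85 at 1200 bp. The cause of these changes was not tested. Of 63 alternatives 38 stayed within the main interval or within 1.5 times the count, 21 moved out of it and 4 changed sign. Those without multicopy peaks, and the matrix in 1 kb, were chosen after seeing the data. The peak list gives no read counts, so depth per peak is unknown. No paired analysis was possible because there was 1 ChIP library and no replicate numbers to pair.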
